A study of Homo sapiens with 6 samples.

Results

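The genes described here sense double-stranded RNA, induce interferon or respond to it, and their transcripts were compared between RH36 cells given pre-miR-27a and RH36 cells given the pre-control. They were chosen by name. Every probe whose gene name in the array files was one of 40 listed genes was taken, and 39 of the 40 genes were found, with 64 probes out of 41000 on the array. IRF9 had no probe under its own name. The 40 genes are 5 sensors and effectors of double-stranded RNA (DDX58, IFIH1, EIF2AK2, TLR3 and ADAR), 5 transcription factors (IRF1, IRF3, IRF7, IRF9 and STAT2), the ligand gene IFNB1, and 29 interferon-stimulated genes. The sensors, transcription factors and ligand are called sensors and inducers below.

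RH36 is an established line of embryonal rhabdomyosarcoma, a childhood tumour with features of skeletal muscle, and it lacks the PAX3/FOXO1 fusion. The 3 pre-control arrays (replicates 1 to 3) carry RNA of cells given a negative control precursor, and the 3 pre-miR-27a arrays (replicates 1 to 3) carry RNA of cells given the miR-27a precursor. Per the labels, pre-miR-27a was used at 10 nM and its cells were taken 48 h after transfection, while the paper's methods give a higher concentration and its results an earlier time. The files do not settle between them. Both groups received a small precursor RNA with a transfection reagent, no untransfected array was analysed here, and all values come from 1 cell line. The comparison therefore reads the difference between the precursors and not the effect of transfection itself. The labels call the replicates biological. Each group was hybridised on a slide of its own, and therefore no difference given below can be told apart from a difference between slides. The arrays measure messenger RNA, and mature miR-27a was not analysed here.

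Cells recognise foreign RNA through proteins that bind long or 5′-triphosphate double-stranded RNA. RIG-I (DDX58) and MDA5 (IFIH1) do so in the cytoplasm, TLR3 in endosomes, and PKR (EIF2AK2) halts translation when it binds such RNA, whereas ADAR edits adenosines in it. The sensors activate IRF3 and IRF7, which switch on IFNB1. Secreted interferon-beta then acts through its receptor on a complex that includes STAT2 and IRF9 and binds the interferon-stimulated response element to turn on the interferon-stimulated genes. Synthetic small RNAs are known to be able to start this response in some cells, which is the reason for looking at these genes in a precursor transfection.

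The mature strand that the precursor is meant to give is shown first, since it is the RNA that differs between the groups. Its sequence is the RefSeq entry on GRCh38.p14, chr19:13836447-13836467 on the minus strand, and capitals mark the seed, bases 2 to 8.
hsa-miR-27a-3p: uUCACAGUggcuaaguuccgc

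The interferon-stimulated response element was searched for in RefSeq promoter windows (GRCh38.p14, 250 bases before to 50 bases after each gene's start), as a pair of GAAA tetramers separated by 2 bases of any kind, on both strands and with overlapping matches counted. A window was present for 30 of the 40 genes (DDX58 under its current symbol RIGI). It held a match in 20 of the 30, 66.7%, against 3.57% of the 35116 promoters in the table. Among interferon-stimulated genes 17 of 21 windows held one, and among sensors and inducers 3 of 9 (IFIH1, EIF2AK2 and TLR3). The stretches below belong to members whose values are given in detail. Capitals mark the tetramers, which read TTTC where the match lies on the other strand.
EIF2AK2, chr2:37156962-37157001, minus strand: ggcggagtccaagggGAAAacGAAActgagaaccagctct
IFIT1, chr10:89392505-89392544, plus strand: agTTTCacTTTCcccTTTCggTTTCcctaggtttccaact
ISG15, chr1:1013375-1013414, plus strand: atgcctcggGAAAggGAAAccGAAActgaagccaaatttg
IFITM3, chr11:320871-320910, minus strand: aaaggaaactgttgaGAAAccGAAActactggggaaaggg
IFI6, chr1:27672261-27672300, minus strand: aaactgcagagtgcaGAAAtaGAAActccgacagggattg
A match describes these letters only and is not a measured site. The 16 interferon-stimulated genes with a match and a value had a median log2 difference of −0.14 between the groups, and the 4 without a match had −0.13. IFI6 entered by a probe placed outside that gene, and RSAD2 (with a match) and OAS1 (without) were well above background on no array.

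The interferon response genes as a group did not stand higher in pre-miR-27a cells. Probes lacking a value on more than 1 array were removed. This left 58 of the 64 probes and 34 genes, and each gene is given by its brightest kept probe unless another probe is named. Values are log2 signals after quantile normalization, and differences are pre-miR-27a minus pre-control on the log2 scale. Over the 34 genes the median difference was −0.11, against −0.04 over 27328 gene names of the array. The 27 interferon-stimulated genes had a median of −0.14, with 9 differences above 0 and 18 below. Over all gene names, 11929 differences were above 0 and 15399 below. Of the 27 genes, 21 were well above background on all 6 arrays, and IFI6 is counted by a probe placed outside that gene. The 7 sensors and inducers had a median of −0.08, with 3 above 0 and 4 below. No gene had a difference of 1 or more in size (0 of 34), and for 26 genes the 95% interval lay wholly between −1 and 1.

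With limma and Benjamini-Hochberg adjustment over all kept probes, at a threshold of 0.05, 0 of the 34 genes were called higher, where 3.07% of all gene names were called higher. There were 2 genes called lower, IFITM2 and IFI6, where 4.33% of all gene names were called lower. The IFI6 call came from a probe placed outside that gene, as described with IFI6, and leaving such probes out left 1 gene called lower. By unadjusted p under 0.05 there were 5 genes, 1 higher and 4 lower, which is 14.7% of 34 against 23.8% of all gene names. SAM at a false discovery rate of 5% called 0 members higher and 0 lower, where it called 1336 of all 36469 kept probes. So small a share leaves few calls to be found among 34 genes. Counted by probe, limma called 3 of the 58 kept probes, where 7.83% of all kept probes were called. The arrays of the groups did not overlap for 2 genes with pre-miR-27a higher and for 4 with it lower, where 12.6% and 18.9% of all gene names did not overlap in these directions. Same-numbered arrays of the groups deviated together, and with the replicate number as a block limma called 1 member higher (EIF2AK2), where 5.97% of all gene names were called, and 3 lower (IFITM2, IFITM3 and IFI6), where 8.1% were. The counts of called members thus lay near the shares over all gene names, and the counts without overlap lay below them.

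**Figure D1:**
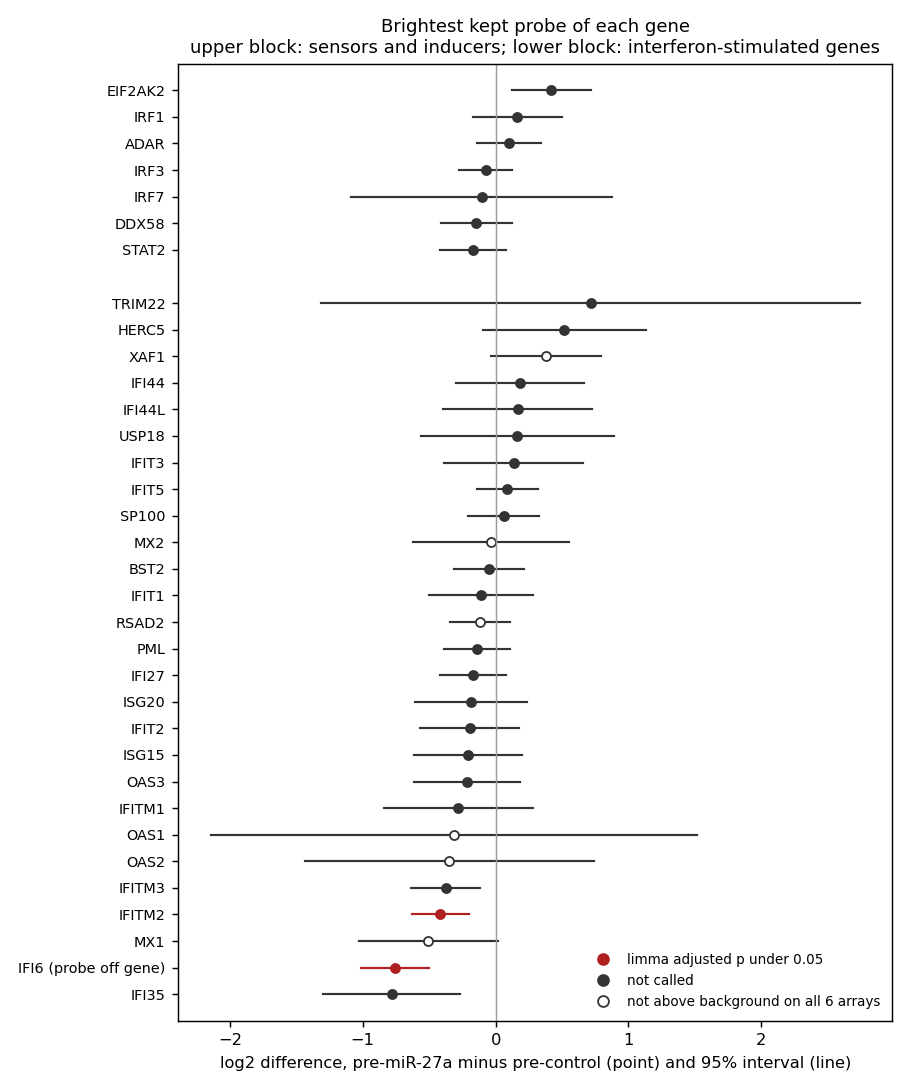
Log2 difference between pre-miR-27a and pre-control arrays (point) with its 95% interval (line) for the brightest kept probe of each of 34 genes, sensors and inducers in the upper block and interferon-stimulated genes in the lower one, each ordered by difference. Red marks an adjusted p under 0.05 by limma, and open points mark genes not well above background on all 6 arrays. Most points lie within 0.5 of 0, and the red points belong to IFITM2 and to the IFI6-labelled probe placed off that gene.

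The genes differed widely in detection. A spot counts as detected where the scanner software flags it as well above background. At least 1 probe was well above background on all 6 arrays for 28 of the 39 genes, and on no array for 7 genes. These 7 were the sensors IFIH1 and TLR3, the ligand gene IFNB1, and CXCL10 (a chemokine that attracts T cells), OAS1 and OASL (of the 2′,5′-oligoadenylate synthetase family, which activates RNase L) and RSAD2 (viperin, an antiviral enzyme). Members were spread as the array was: detection on all 6 arrays was reached by 65.6% of their probes and on none by 21.9%, against 68% and 20.3% of all probes. Per array, 28, 29 and 31 of the 39 genes were detected on the pre-control arrays and 32, 32 and 30 on the pre-miR-27a arrays. The share of all spots detected was likewise lower on the pre-control arrays, 69.9% to 73.9%, than on the pre-miR-27a arrays, 74.1% to 78%, and its part in this was not tested.

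**Figure D2:**
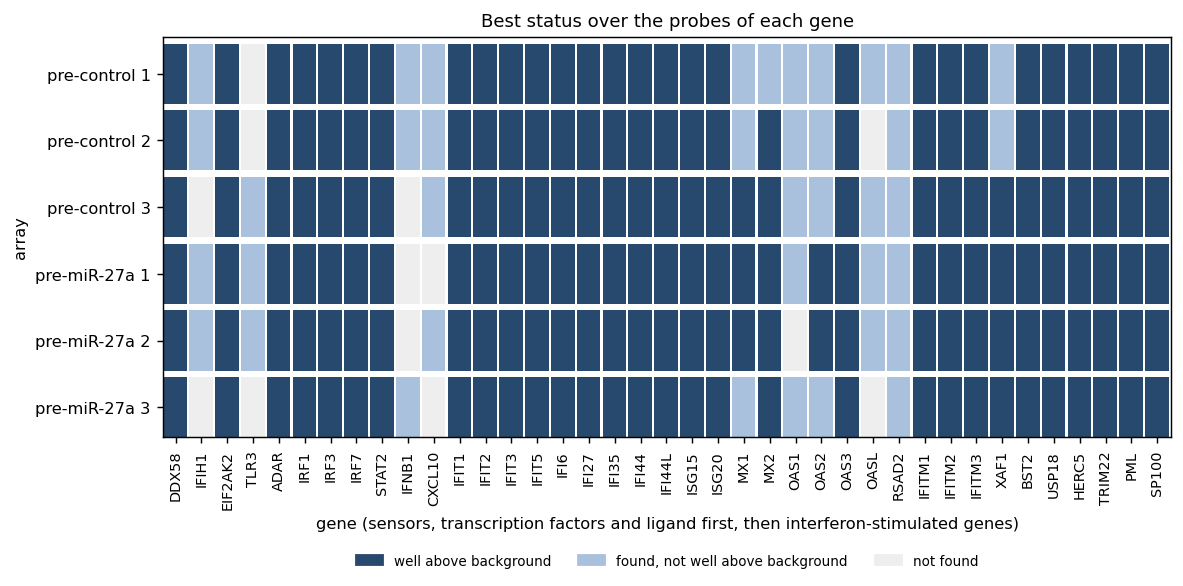
Detection of the 39 genes (columns) on each of the 6 arrays (rows), taking the best status over a gene's probes: dark, well above background; light, found but not well above background; grey, spot not found. IFIH1, TLR3, IFNB1, CXCL10, OAS1, OASL and RSAD2 were not well above background on any array, and MX1, MX2, OAS2 and XAF1 were so on some arrays.

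Among the sensors, DDX58 (RIG-I) was well above background on every array and differed little. Its log2 signals were 10.01, 10.17 and 10.32 on pre-control arrays 1 to 3 and 10.01, 9.95 and 10.11 on pre-miR-27a arrays 1 to 3. The groups overlapped, with a difference of −0.14 (SE 0.11, limma adjusted p = 0.475) and a 95% interval from −0.41 to 0.12. IFIH1 (MDA5) and TLR3 were not kept. Before the filter, IFIH1 had log2 signals of 2.14, 2.15 and 2.02 on the pre-control arrays and 2.76, 2.82 and 2.14 on the pre-miR-27a arrays. TLR3 had 3.77, 2.06 and 4.05 against 2.70, 3.35 and 4.21. None of these spots was flagged as well above background. The lowest signal counted as well above background was 4.39 to 5.00 on the pre-control arrays and 3.63 to 4.07 on the pre-miR-27a arrays. For neither gene can a difference be given.

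EIF2AK2, the kinase PKR, had the highest difference among the sensors. Its log2 signals were 10.77, 10.98 and 10.70 in pre-control and 11.19, 11.40 and 11.12 in pre-miR-27a cells, so the groups did not overlap. The difference was 0.42 (SE 0.12, 1.34-fold), with limma adjusted p = 0.097 without the block and 0.0348 with the replicate number as a block. Within the same replicate number it was 0.41, 0.41 and 0.43, so each pre-miR-27a array exceeded its pre-control partner by nearly the same amount. A second EIF2AK2 probe gave 0.33 (SE 0.11, limma adjusted p = 0.139, and 0.0535 with the block), also without overlap between the groups. This gene is the one sensor whose promoter stretch is printed above, with the match beginning 6 bases before the annotated start.

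ADAR, the RNA-editing enzyme, had log2 signals of 14.02, 13.74 and 13.85 in pre-control and 14.01, 14.00 and 13.92 in pre-miR-27a cells. The groups overlapped, with a difference of 0.10 (SE 0.097, limma adjusted p = 0.579). Scaling each array to its 75th percentile instead gave −0.0062, so no direction can be given. A dimmer ADAR probe differed by 0.28 (adjusted p = 0.229).

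The transcription factors were detected on all 6 arrays and none was called. IRF3, the factor that sensors activate first, had log2 signals of 10.35, 10.51 and 10.38 in pre-control and 10.39, 10.33 and 10.29 in pre-miR-27a cells, which overlapped (−0.08, SE 0.081, limma adjusted p = 0.625). IRF1 and STAT2 differed by 0.16 and −0.17. IRF7, itself an interferon-stimulated gene, differed by −0.11, while its signals spanned 5.55 to 6.66 within the pre-control group alone. IRF9 lay outside the rule: the files list it under its older name ISGF3G, where the brighter probe differed by −0.23 (limma adjusted p = 0.234) and a dimmer one by 0.44 (adjusted p = 0.383). IFNB1, the gene of interferon-beta, was found on 3 arrays and well above background on 0 of 6, with signals before the filter of 2.21, 2.27 and 2.23 in pre-control and 3.01, 2.15 and 2.21 in pre-miR-27a cells. That places it below the limit of detection in both groups at the time sampled, and no difference can be given.

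The IFIT genes encode proteins that bind viral RNA and are among the most inducible interferon targets. IFIT1 had log2 signals of 12.24, 12.68 and 12.64 in pre-control and 12.29, 12.59 and 12.36 in pre-miR-27a cells. The groups overlapped, with a difference of −0.11 (SE 0.16, limma adjusted p = 0.723). IFIT2 differed by −0.20, IFIT3 by 0.13 and IFIT5 by 0.09, and none was called. Probes of 2 of these genes disagreed. A dim second IFIT2 probe differed by 1.87 (adjusted p = 0.179) and was well above background on 1 pre-control array and on 3 pre-miR-27a arrays. Its signals were 2.21, 4.65 and 4.75 in pre-control and 5.59, 6.01 and 5.63 in pre-miR-27a cells, without overlap. Within the same replicate number it differed by 3.38, 1.36 and 0.88, so the size rests much on the low signal of pre-control replicate 1. A second IFIT5 probe differed by −0.34 without overlap between the groups (limma adjusted p = 0.156, and 0.0427 with the block). These second probes are singled out because of their values.

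ISG15, a ubiquitin-like protein attached to other proteins during the response, had log2 signals of 11.22, 11.49 and 11.70 in pre-control and 11.07, 11.25 and 11.46 in pre-miR-27a cells. The groups overlapped, although each pre-miR-27a array was below the pre-control array of its number (−0.21, SE 0.16, limma adjusted p = 0.495, and 0.0884 with the block). USP18, which removes ISG15 again, differed by 0.16, and HERC5, which attaches it, by 0.52 (SE 0.25, adjusted p = 0.266, and 0.0523 with the block). HERC5 signals were 9.23, 9.92 and 9.37 in pre-control and 9.96, 10.38 and 9.73 in pre-miR-27a cells, so the lowest pre-miR-27a array lay within the pre-control range.

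The IFITM genes encode membrane proteins that hinder virus entry, and each of the 3 on the array had a difference below 0. IFITM2 had log2 signals of 13.93, 14.10 and 14.12 in pre-control and 13.58, 13.64 and 13.68 in pre-miR-27a cells. The groups did not overlap, and IFITM2 fell by 0.42 on the log2 scale (SE 0.087, limma adjusted p = 0.0479, and 0.0371 with the block), that is 1.33-fold lower. The call did not hold when any 1 of the 6 arrays was left out, with adjusted p from 0.0591 to 0.15 and differences from −0.48 to −0.38. It was also just missed with 75th percentile scaling (adjusted p = 0.0502) and over gene means (adjusted p = 0.0534). IFITM3 had signals of 14.09, 14.20 and 14.34 against 13.82, 13.74 and 13.96, also without overlap (−0.38, SE 0.10, limma adjusted p = 0.0927, and 0.049 with the block). IFITM1 differed by −0.28 with overlapping groups (adjusted p = 0.508). The IFITM2 probe is at chr11:299109-299168 (hg18). IFITM2 and IFITM3 are close relatives in sequence, and whether their probes read each other's transcripts was not tested.

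IFI35, an interferon-induced leucine zipper protein, had the lowest difference of any member counted by its brightest probe. Its log2 signals were 7.58, 8.17 and 7.99 in pre-control and 7.36, 7.19 and 6.83 in pre-miR-27a cells, without overlap. The difference was −0.78 (SE 0.21, limma adjusted p = 0.0817, and 0.0992 with the block), with a 95% interval from −1.30 to −0.27. It passed the threshold with a filter on probes well above background (adjusted p = 0.0443) and with normexp background correction (adjusted p = 0.0394).

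IFI6, an interferon-induced gene on chromosome 1, is named by 3 probes of which only 1 lies on that gene. That probe, at chr1:27865424-27865483 (hg18), lacked a value for pre-control replicate 1, whose spot was marked not found. The other pre-control arrays had log2 signals of 9.39 and 9.54, and the pre-miR-27a arrays 8.19, 8.69 and 9.04. The fit without that array gave −0.83 (SE 0.27, limma adjusted p = 0.156, and 0.0647 with the block). The signal of the spot that was set aside, 8.64, lies among the pre-miR-27a arrays. The brightest probe that carries the IFI6 name is placed by the files on chromosome 14 (chr14:105279296-105279355, hg18), from another accession, and it gave the call counted above. Its signals were 10.64, 10.88 and 10.58 in pre-control and 9.95, 9.97 and 9.89 in pre-miR-27a cells (−0.76, SE 0.10, limma adjusted p = 0.021). Given that position it is not read as IFI6 here. The remaining probe, also placed on chromosome 14, was well above background on 2 arrays.

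SP100 and PML encode parts of the PML nuclear bodies, which interferon enlarges. The brightest SP100 probe had log2 signals of 16.16, 16.27 and 16.03 in pre-control and 16.16, 16.37 and 16.12 in pre-miR-27a cells, which overlapped (0.06, SE 0.11, limma adjusted p = 0.782). A second probe, at chr2:231042759-231042818 (hg18), had 9.86, 10.04 and 10.01 against 9.38, 9.34 and 9.30. Its groups did not overlap, and it fell by 0.63 (SE 0.084, limma adjusted p = 0.0205). Leaving out 1 array gave adjusted p from 0.0424 to 0.0786, the call being kept only without pre-control replicate 1. Another probe differed by 0.24 (adjusted p = 0.327), so the SP100 probes well above background did not share a direction. PML, with 6 probes all well above background, had differences from −0.19 to 0.11 and none was called.

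**Figure D3:**
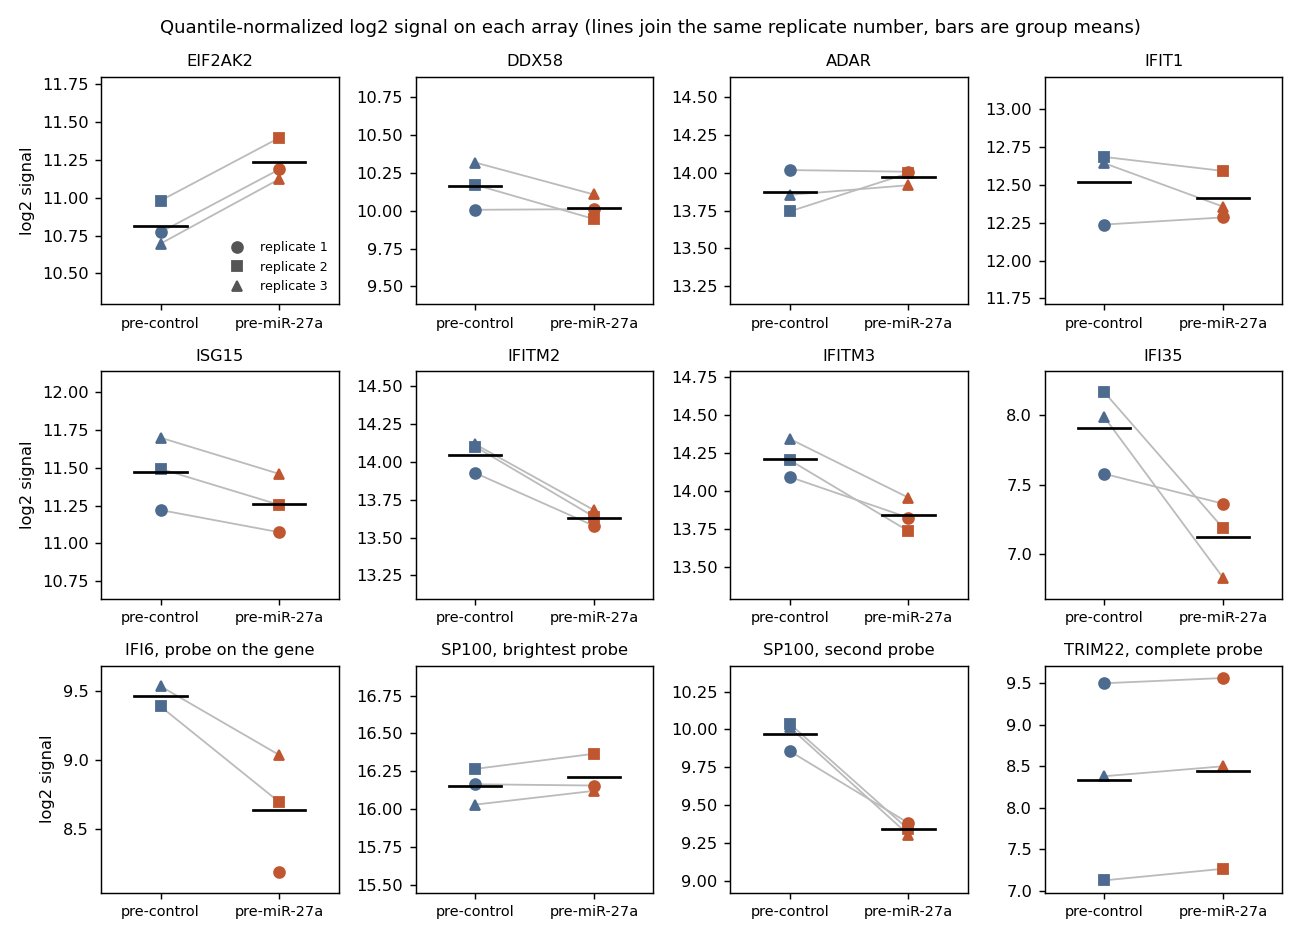
Log2 signal of 12 probes on each array, blue for pre-control and orange for pre-miR-27a, with grey lines between arrays of the same replicate number and black bars at the group means. EIF2AK2 lies higher and IFITM2, IFITM3, IFI35 and the second SP100 probe lie lower on all pre-miR-27a arrays, while for TRIM22 the replicate numbers differ far more than the groups. The vertical axes differ between panels.

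The classical antiviral effectors were dim. MX1, a GTPase that blocks virus replication, had log2 signals of 4.43, 5.08 and 4.67 in pre-control and 4.45, 3.95 and 4.26 in pre-miR-27a cells. It was well above background on 1 pre-control and 2 pre-miR-27a arrays, and the groups overlapped (−0.51, SE 0.21, limma adjusted p = 0.213). MX2 was detected on 5 arrays and differed by −0.03. OAS1 was well above background on no array, with signals of 4.26, 2.80 and 2.58 in pre-control and 3.62 and 2.18 in pre-miR-27a replicates 1 and 3, so no fold is given. OAS3 was detected on all arrays and differed by −0.22 (adjusted p = 0.457). OAS2 was well above background on 0 pre-control arrays and on pre-miR-27a replicates 1 and 2, the spot of replicate 2 being marked not found. Its signals were 4.26, 5.20 and 4.33 in pre-control and 4.68 and 3.82 in pre-miR-27a replicates 1 and 3 (−0.35, limma adjusted p = 0.671). The lowest signal counted as well above background was higher on the pre-control arrays, so its detection does not show a higher level in pre-miR-27a cells. CXCL10 was found on 4 arrays and detected on none, with signals before the filter of 2.15, 2.09 and 3.31 in pre-control and 2.04, 2.03 and 2.08 in pre-miR-27a cells. XAF1, a proapoptotic interferon target, had 1 probe well above background on 0 pre-control and 3 pre-miR-27a arrays. The limit given for OAS2 applies to this detection too. The probe differed by 0.38 (SE 0.17, limma adjusted p = 0.233), and by 0.38, 0.03 and 0.72 within replicate numbers 1 to 3. The ratio of its group means had a lower bound of 1.23. That bound leaves out their spread, and the probe was not called, so no rise is read from it. Another XAF1 probe had a difference of −0.69 (adjusted p = 0.217). This other probe was well above background on 1 pre-control and 2 pre-miR-27a arrays and had no value for pre-miR-27a replicate 2.

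The remaining interferon-stimulated genes were detected on all arrays and not called. ISG20 (an exonuclease) differed by −0.18, IFI27 by −0.17, BST2 (tetherin, which holds virus particles at the cell surface) by −0.05, IFI44 by 0.18 and IFI44L by 0.17. TRIM22, a ubiquitin ligase, had the highest difference of any member counted by its brightest probe, 0.71. That probe lacked pre-miR-27a replicate 2, whose spot was marked not found with a signal of 7.52. A second TRIM22 probe with all 6 values differed by 0.11 (limma adjusted p = 0.954).

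Some of these genes differed between replicate numbers in the same way in both groups. The second TRIM22 probe had log2 signals of 9.50, 7.12 and 8.38 on pre-control arrays 1 to 3 and 9.57, 7.26 and 8.50 on pre-miR-27a arrays 1 to 3, a 5.07-fold range between replicate numbers 1 and 2. USP18 was 12.10, 12.22 and 12.60 against 12.06, 12.29 and 13.07. IRF7 was 5.55, 6.22 and 6.66 against 5.43, 6.10 and 6.58, the same order of replicate numbers in both groups. These 3 genes were chosen after their values were seen. The order of the numbers was the same in both groups for 13 of 26 members with all values (50%) and for 11 of 19 interferon-stimulated ones (57.9%), against 44.6% of all gene names treated alike. The median range over replicate numbers was 0.35 for interferon-stimulated members and 0.26 for all gene names.

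Across those 26 members the deviations from the group means correlated with r = 0.68, 0.70 and 0.78 between same-numbered arrays, and across 31717 probes with r = 0.40, 0.46 and 0.41. The 26 members were detected on all arrays. The 31717 probes include some that were not, since they outnumber the 27059 probes detected on all arrays. The sets thus differ in detection, and the higher r of the members cannot be read as particular to these genes. The correlations are across genes of the same arrays and are given as a description. Replicate numbers are also positions on the slides, and culture, extraction and position under 1 number cannot be told apart here. Among the 21 interferon-stimulated members detected on all arrays, the median deviation from each gene's mean was −0.04, 0.14 and 0.12 on the pre-control arrays and −0.18, −0.06 and −0.03 on the pre-miR-27a arrays. The groups overlapped slightly, and within each replicate number the pre-miR-27a array was the lower. Over 27059 probes detected on all arrays, it was 0.016, 0.018 and 0.006 on the pre-control and −0.010, −0.004 and −0.018 on the pre-miR-27a arrays. These too were lower within each number, by less. The 21 members include the IFI6-labelled probe placed off that gene.

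**Figure D4:**
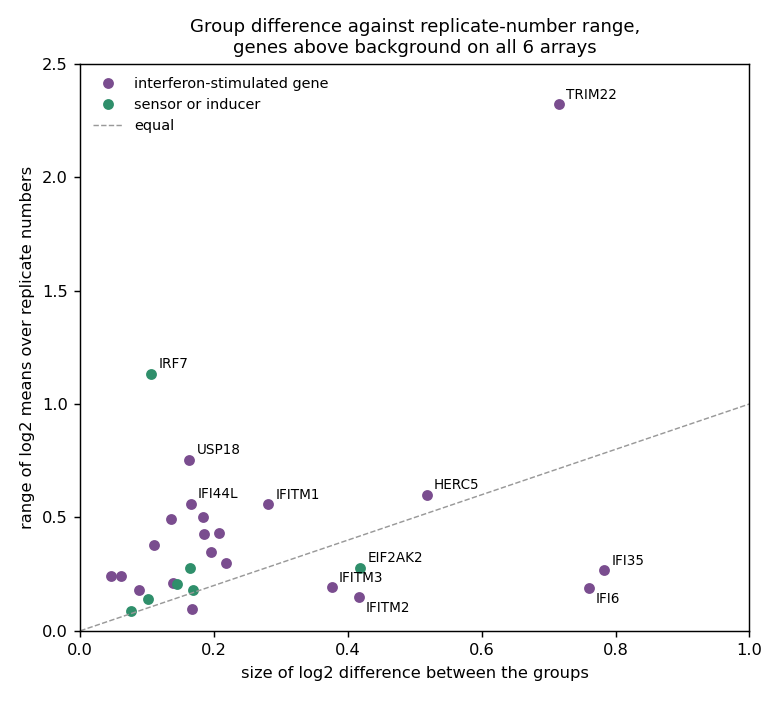
Range of the log2 means over replicate numbers 1 to 3 (vertical) against the size of the log2 difference between the groups (horizontal) for 28 genes detected on all 6 arrays, with a dashed line where they are equal. TRIM22, IRF7 and USP18 lie highest, and IFI35 and the IFI6-labelled probe lie farthest below the line. The line is a guide to the eye and no test. TRIM22 and the IFI6 name are drawn by their brightest probes, of which that of TRIM22 lacks 1 array.

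Other genes of the pathway gave the setting. Of 60 listed, 57 were on the array and 54 were kept, with 2 called higher and 1 called lower by limma, where 3.07% and 4.33% of all gene names were, and a median difference of −0.07. When arrays were blocked by replicate number, 3 were called higher and 6 lower, where 5.97% and 8.1% of all gene names were. Of these, 2 higher and 4 lower were among the 24 kept interferon-stimulated genes of this list. Another 1 higher and 2 lower were among its 16 ligands, receptors and signalling genes, and 0 among its 14 adaptors and kinases. Genes called only with the block are not named. IFNAR2, a chain of the interferon receptor, had log2 signals of 6.21, 6.20 and 6.14 in pre-control and 7.57, 7.51 and 7.36 in pre-miR-27a cells, and was 1.30 higher (SE 0.086, limma adjusted p = 0.0161). IRF2, a repressor of interferon genes, fell by 0.68 (SE 0.13, limma adjusted p = 0.0391), and a dimmer IRF2 probe differed by 0.04. IFI16, a nucleic acid sensor, was called higher on signals that were not well above background on any array, so no fold is given. Second probes were called higher for TRIM25, which activates RIG-I (0.91, adjusted p = 0.0176), and for the kinase JAK1 (0.76, adjusted p = 0.0424), while their brightest probes differed by −0.36 and 0.02. The other receptor chain IFNAR1 differed by −0.08 and was not called.

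The labelled line was checked on its markers. The muscle genes MYOD1, MYOG, DES, CDH15 and CHRNA1 were well above background on all 6 arrays and MYF5 on none. The myogenic regulators MYOG and MYOD1 differed by −0.95 and −0.45 without overlap between the groups (limma adjusted p = 0.14 and 0.0787, and 0.0334 and 0.0363 with the block), CDH15 by −0.35 (0.0561, and 0.0457 with the block) and DES by −0.01. The brightest CHRNA1 probe differed by −0.15 and a second was called higher (0.95, adjusted p = 0.0216). Of the leukocyte markers PTPRC was well above background on no array, while CD14, CD3E and ITGAM were on all. CD14 and the brighter CD3E probe were called lower (−0.71 and −0.44, limma adjusted p = 0.0223 and 0.0348), a second CD3E probe differed by −0.05 (adjusted p = 0.874) and ITGAM by −0.41 (0.137, and 0.0402 with the block). Of the epithelial markers EPCAM and CDH1 were on no array well above background, and KRT8 was on all and called lower (−0.70, adjusted p = 0.0176). Of the endothelial markers PECAM1 was on none, CDH5 on 3 and KDR on 1. The part of these in the lower interferon-stimulated genes was not tested.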

How the data were processed

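Total RNA of RH36 cells was hybridised to 1-colour Agilent whole human genome arrays, 3 per group. The authors deposited, for each spot, the processed intensity of Feature Extraction 10.5.1.1, with background subtracted and no normalization between arrays, beside quality flags. They also deposited log2 values for 33169 probes, which differed from the values used here by a median of 0.0040 and at most 1.16 log2 units. The column medians of these were 9.13 to 9.22, and they served as an alternative.

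Here, log2 of the processed intensity of 43376 spots was quantile normalized, spots marked not found were set to missing (1559 to 1750 per pre-control and 3487 to 4153 per pre-miR-27a array), and spots of a probe were averaged. Probes missing on more than 1 array were left out, which kept 36469. The groups were compared in limma 3.58.1 (R 4.3.3, files read with the data.table package, version 1.17.8), with Benjamini-Hochberg adjustment over all kept probes and a threshold of 0.05. The paper names a two-class SAM in its methods and a paired one in its results. SAM was run here only unpaired, with 20 relabellings, and so ignores the pairing. Scripts were tested on simulated data. The smallest two-sided p of an exact permutation test with 3 arrays per group is 0.1, so none is given. The number of arrays limits the precision.

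Replicate numbers in the labels were taken to pair the arrays, because deviations of same-numbered arrays correlated by 0.40 to 0.46 over 31717 probes, against −0.27 to −0.12 for different numbers. Deviations within a group cancel, so the negative values follow in part from the positive ones and are no separate support. The fit without the block is the main one.

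The members and the other gene lists were chosen with earlier results of these data known. Values on every array are given for members with a called probe, for those without overlap and a difference of at least 0.5, and for DDX58, IFIH1, EIF2AK2, TLR3, ADAR, IRF3, IFNB1, IFIT1, ISG15, MX1, OAS1 and CXCL10. Of the other pathway genes, 1 is not reported here by name. A gene is given by its brightest kept probe. A fold against a group with no array well above background is a bound on the ratio of the group means, which leaves out their spread. For it, each array of the dim group takes its lowest signal flagged as well above background, or the probe's signal where that is higher. Probe positions are those of the files (hg18), and promoter and miRNA sequences are RefSeq's (GRCh38.p14).

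Alternatives tried were normexp background correction (offset 50), scaling to the 75th percentile, no filter on missing spots, filters on 2 other detection flags, outlier spots left out, the replicate block, the deposited table, limma with trend and robust estimation, SAM, the mean of a gene's probes, and each array left out.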

Additional observations from a re-analysis of the deposited data

How the results depend on the processing

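The count of members called lower, 2 in the comparison as reported, was 1 with 75th percentile scaling, 0 with the mean of a gene's probes, 0 with SAM, and 0 to 1 when 1 array was left out. It was 3 with normexp background correction, with the filter on probes well above background and with the replicate block. It was 1 when the IFI6 probes placed off the gene were left out, an alternative chosen after seeing the data. The call that remained without pre-control replicate 1 was that of the IFI6-labelled probe (adjusted p = 0.0488). Over the whole array the number of called probes, 2856, fell to 0 to 1276 when 1 array was left out (1276 without pre-control replicate 1, 81 without pre-control replicate 3, and 0 without any other), so the lost calls are not particular to these genes. The count called higher stayed at 0 except with the replicate block, paired by number, where it was 1. The block also added calls for IFITM3 (adjusted p = 0.049) and for second probes of IFIT5 (0.0427) and MX2 (0.0421, well above background on 1 array), and no called member probe lost its call with it.

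The median over sensors and inducers, −0.08, had no stable sign. It was 0.11 with no filter on dim probes, 0.0082 with the mean of a gene's probes, and −0.11 to 0.085 when 1 array was left out. The medians over all members and over interferon-stimulated genes stayed below 0 under all alternatives run, at −0.11 to −0.056 and −0.14 to −0.089 when 1 array was left out. The median over the whole array was also below 0 under each of them, and −0.028 to −0.018 when 1 array was left out. The stable sign alone is therefore not particular to these genes. The count of genes without overlap, 6, was 7 to 15 when 1 array was left out, where a smaller group separates more easily. ADAR turned to −0.0062 with 75th percentile scaling. The brightest SP100 probe turned to −0.12 with that scaling and −0.14 with the mean of its probes, and spanned −0.015 to 0.12 when 1 array was left out. OAS1, below background, spanned −1.03 to 0.41 in the same way. 75th percentile scaling moved the median of all kept probes from −0.02 to −0.09. The causes were not tested.

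Signal over background sets a further limit: a response of genes not above background, IFNB1 and CXCL10 included, could not be read.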
